A study of Mus musculus with 3 samples.

Results

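Dendritic cells were sought among mouse peripheral blood mononuclear cells (PBMCs) by 2 sets of transcripts. A cell was called plasmacytoid when it held at least 3 UMIs (unique molecular identifiers, each standing for 1 captured RNA molecule) of Siglech, Ccr9, Klk1 and Cox6a2 together. It was called conventional when it held at least 3 UMIs of Flt3, Cd209a, Zbtb46, Xcr1 and Clec9a together. A cell with more than 1 UMI of Cd79a and Cd79b, which B cells carry, or of Cd3d, Cd3e and Cd3g, which T cells carry, was left out, and a cell that met both rules went to the kind with the larger sum. Of 28333 cells that passed the quality filters, 90 met a rule. The cells were thus chosen by the measured UMIs of the 9 genes, whose values are given as a description. They were 8 plasmacytoid cells, 81 conventional cells and 1 cell with equal sums of both, which was kept out of both kinds.

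The cells came from C57BL/6 female mice in 3 single-cell libraries, 1 per group, made with droplet capture of the 3′ ends of transcripts. Young mice were 8 weeks old, aged mice were 16 months old, and aged-GA mice were 16 months old and had received glycyrrhizic acid (GA, a saponin of licorice root) by tail vein injection for 1 month. The labels give the young and aged mice no treatment, whereas the methods describe saline injections for the controls, and the study describes several mice per group without saying how their cells were combined into 1 library. With 1 library per group no difference between groups could be tested, and the intervals below are exact 95% intervals that cover counting error only. The filters kept 8354 young, 9136 aged and 10843 aged-GA cells, with medians of 4531.5, 3512 and 4319 UMIs per cell. The young library held 1 of the 90 cells, the aged library 60 and the aged-GA library 29.

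Plasmacytoid dendritic cells sense viral nucleic acids through endosomal Toll-like receptors and are known for secreting type I interferon in large amounts; they depend on the transcription factor TCF4 and carry the mouse surface receptor Siglec-H. Conventional dendritic cells take up antigen and present it to T cells on MHC class II molecules. They fall into a lineage that depends on BATF3 and IRF8, bears XCR1 and CLEC9A and cross-presents antigen on MHC class I, and a lineage that bears SIRPα and, in part, CD209a, and shares many transcripts with monocytes. All are rare in blood and respond to the growth factor FLT3L through the receptor FLT3.

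The E-box CAGGTG is a form of the sequence bound by E proteins such as TCF4, so the sequences upstream of the genes that chose the plasmacytoid cells were read from RefSeq (GRCm38.p6). In the 250 bases before the annotated start, searched on both strands, Siglech, Ccr9 and Klk1 each held the motif, 20, 85 and 87 bases before the start, and Cox6a2 had no entry. Among 27025 genes with an entry, 19.4% held it. Of the 5 genes that chose the conventional cells, 1 held it, which was Zbtb46 at 238 bases before the start. Of the 9 genes with an entry among those most enriched in plasmacytoid over conventional cells, 1 held it, which was Bst2 at 205 bases. Of the 13 with an entry among those lowest in plasmacytoid cells, 3 held it, which were Lrrfip2, Retnlg and S100a9. The windows shown are those upstream of Siglech at chr7:55767934-55768183 on the plus strand, Ccr9 at chr9:123766961-123767210 on the plus strand, Klk1 at chr7:44225110-44225359 on the plus strand, Bst2 at chr8:71537473-71537722 on the minus strand and Zbtb46 at chr2:181424389-181424638 on the minus strand. The sequences run 5′ to 3′ on the gene's strand and end at the base before the start. Capitals mark CAGGTG or its reverse complement CACCTG, and in Zbtb46 also the AP-1 motif TGANTCA (N stands for any base), which 7.82% of genes held and which did not overlap the E-box there. A match is a string of letters, not a site shown to be bound.
Siglech: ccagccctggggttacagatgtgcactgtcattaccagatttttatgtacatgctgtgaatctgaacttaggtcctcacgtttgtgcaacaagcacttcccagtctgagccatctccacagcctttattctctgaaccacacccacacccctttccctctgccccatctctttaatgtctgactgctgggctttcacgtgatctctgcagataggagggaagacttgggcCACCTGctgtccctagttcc
Ccr9: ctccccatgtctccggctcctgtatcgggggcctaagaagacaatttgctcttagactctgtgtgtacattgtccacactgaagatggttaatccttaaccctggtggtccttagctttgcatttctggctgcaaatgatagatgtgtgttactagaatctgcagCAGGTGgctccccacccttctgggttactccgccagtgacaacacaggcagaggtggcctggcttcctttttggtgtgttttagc
Klk1: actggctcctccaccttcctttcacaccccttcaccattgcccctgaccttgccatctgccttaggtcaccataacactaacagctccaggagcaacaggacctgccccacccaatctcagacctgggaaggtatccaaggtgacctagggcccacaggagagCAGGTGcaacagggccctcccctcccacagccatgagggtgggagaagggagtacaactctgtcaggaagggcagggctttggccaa
Bst2: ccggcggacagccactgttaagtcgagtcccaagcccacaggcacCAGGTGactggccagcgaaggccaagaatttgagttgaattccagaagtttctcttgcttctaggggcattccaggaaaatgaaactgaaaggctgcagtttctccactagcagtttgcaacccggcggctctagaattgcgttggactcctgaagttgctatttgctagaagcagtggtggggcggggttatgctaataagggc
Zbtb46: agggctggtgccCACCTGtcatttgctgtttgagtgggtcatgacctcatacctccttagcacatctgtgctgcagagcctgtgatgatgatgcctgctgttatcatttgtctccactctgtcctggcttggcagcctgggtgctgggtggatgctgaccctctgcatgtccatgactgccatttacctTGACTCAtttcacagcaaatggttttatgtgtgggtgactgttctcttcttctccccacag

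Plasmacytoid cells were the rarer kind in the aged and aged-GA libraries. They numbered 1 of 8354 kept cells in the young library, 3 of 9136 in the aged and 4 of 10843 in the aged-GA library. These are 0.0120% (interval 0.000303 to 0.0667), 0.0328% (0.00677 to 0.0959) and 0.0369% (0.0101 to 0.0944), and the 3 intervals overlapped. The shares count cells that met the rule. The young cell and 1 of the 4 aged-GA cells held no Siglech UMI and went against the label, as described below. Conventional cells were not seen in the young library, where 0 of 8354 cells allows a share of up to 0.0359% by 3 counts and up to 0.0441% by the exact interval. They made up 0.624% of aged cells (57 cells, interval 0.473 to 0.808) and 0.221% of aged-GA cells (24 cells, 0.142 to 0.329). On the log2 scale the conventional share of the aged library was at least 4.12 above that of the young library, set against 3 counts. The aged-GA share was 1.50 below the aged share, with a log2 ratio of -1.50 (-2.25 to -0.78).

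The size of these differences depended on the cells counted in the denominator. Cells within the B and T limits numbered 433 in the young library (5.18% of kept cells), 2449 in the aged (26.8%) and 1196 in the aged-GA library (11.0%). Among those cells, the conventional share was 2.33% in the aged library (1.77 to 3.01) and 2.01% in the aged-GA library (1.29 to 2.97), a log2 ratio of -0.21 (-0.97 to 0.50) whose interval includes 0. In the young library 0 of 433 allows up to 0.693% by 3 counts and up to 0.848% by the exact interval. Set against 3 counts, this puts the aged share at least 1.75 higher on the log2 scale. Monocytes, called by at least 3 UMIs of monocyte transcripts, stood in the same order as the conventional cells among all kept cells, at 0.670%, 13.1% and 3.35%. Their part in the difference of conventional shares was not tested. In all cells thinned to 2000 UMIs, with 122, 640 and 334 shallower cells left out, 0, 12 and 11 conventional cells remained, 0.141% of aged and 0.105% of aged-GA cells.

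**Figure D1:**
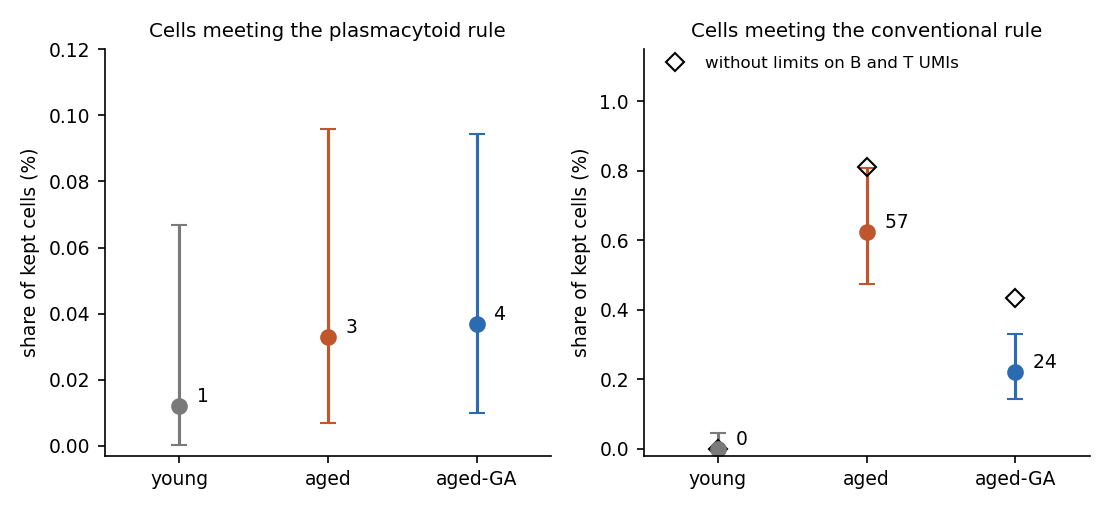
Share of kept cells (percent, vertical axis) that met the plasmacytoid or the conventional rule in the young, aged and aged-GA libraries, with exact 95% binomial intervals as bars and the number of cells printed, and open diamonds for conventional cells when the B and T limits are not applied. The plasmacytoid intervals overlap in the 3 libraries, while conventional cells number 0 in the young library and reach 0.624% in the aged and 0.221% in the aged-GA library.

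The B and T limits took away some cells that carried the transcripts of the rule. Without them the conventional rule was met by 0, 74 and 47 cells, 0.81% of aged and 0.434% of aged-GA cells. Cells with 2 rule UMIs, just under the limit, numbered 0, 28 and 3, and cells with exactly 3 numbered 0, 14 and 4, whereas 25 aged and 20 aged-GA cells held 6 or more. For plasmacytoid cells, 1, 4 and 1 cells had 2 rule UMIs. Most of the plasmacytoid-rule cells beyond the limits held Ccr9 at 3 UMIs or more (20 of 21, 13 of 14 and 20 of 23 in the order young, aged, aged-GA), a chemokine receptor that some T cells also carry. Siglech was present in 1, 1 and 2 of them. The young cell among these held Siglech 13, Ccr9 7, Klk1 19, Cox6a2 7, Bst2 42 and Tcf4 12 UMIs together with 27 of Cd79a and Cd79b, so that the library without a Siglech-bearing cell inside the limits had 1 outside them. No barcode of a chosen cell recurred in another library, and the top 5% of doublet scores of each library held 2 aged and 3 aged-GA conventional cells and no plasmacytoid cell.

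The plasmacytoid label was checked cell by cell on genes outside the rule, and 6 of the 8 cells carried Bst2, Tcf4, Irf8 and Ly6d. Of the rule genes, given as a description, Siglech was at 27, 8 and 7 UMIs in the 3 aged cells and at 29, 20 and 18 in 3 of the 4 aged-GA cells. These 6 cells carried Bst2, an interferon-induced tether of virus particles that mouse plasmacytoid cells bear at rest, at 39, 58 and 54 UMIs in the aged and 40, 42 and 27 in the aged-GA cells. They also carried Tcf4, the factor that keeps the lineage, at 17, 23 and 9 and at 19, 15 and 13 UMIs, and Irf8 at 23, 12 and 23 and at 14, 39 and 18 UMIs. Spib and Pacsin1 were not in all of them. The aged cell with 8 UMIs of Siglech held neither, and the aged-GA cell with 29 held no Pacsin1. The other 2 cells stood apart. The young cell and the fourth aged-GA cell held Cox6a2, a subunit of cytochrome c oxidase, at 3 and 8 UMIs and no UMI of Siglech, Ccr9, Klk1, Bst2, Tcf4 or Ly6d. Irf8 was present in these 2 cells too, at 9 and 7 UMIs. Both carried transcripts of natural killer (NK) cells, with Nkg7 at 6 and 24 UMIs and Gzma, a cytotoxic granule protease, at 30 and 63. They went against the label and met the rule through a single gene.

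Some of the 6 cells were mixed as well. The aged cell with 8 UMIs of Siglech was the deepest, at 36101 UMIs against 7360 and 7099 in the other aged cells. It held 465 UMIs of Lyz2, the lysozyme of monocytes and macrophages, 13 of F13a1 and 7 of Csf1r. The aged-GA cell with 18 UMIs of Siglech held 4 of Cd209a, 10 of H2-Aa and 40 of Cd74. The cell with equal sums, also from the aged-GA library, held 8 UMIs of Siglech, 31 of Bst2, 36 of Tcf4 and 5 of Cd209a. Klk1, a kallikrein protease, was sparse, with 4 UMIs over the aged and 6 over the aged-GA cells.

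**Figure D2:**
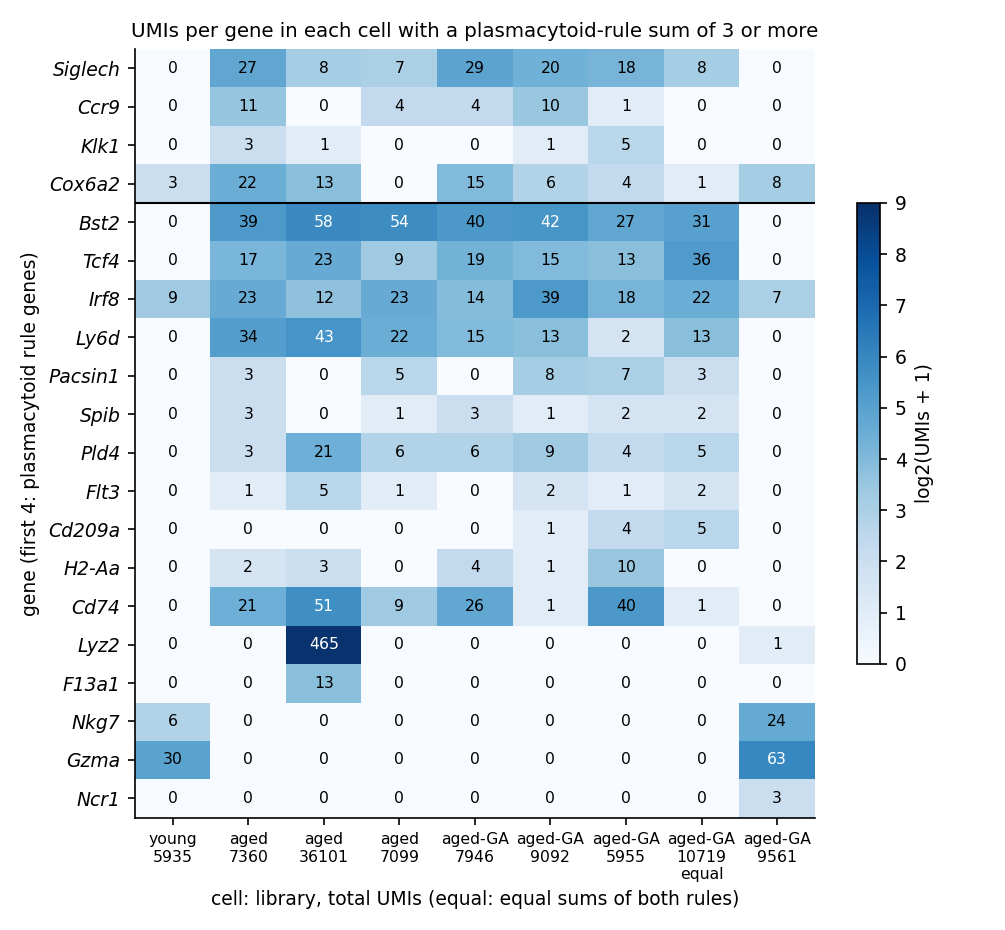
UMIs of 20 genes (rows) in the 8 plasmacytoid cells and the cell with equal sums (columns, with library), the number printed in each box and the colour by log2(UMIs + 1). The 2 cells without Siglech show 0 UMIs of Bst2, Tcf4 and Ly6d beside Gzma at 30 and 63.

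The kinds were set side by side within the aged and the aged-GA library, from UMIs summed over 3 and 4 plasmacytoid and 57 and 24 conventional cells (50560 and 32554 against 650152 and 304214 UMIs). Levels are UMIs divided by the summed UMIs of all genes and given as CPM. Log2 ratios were taken with 10 CPM added to both sides, which shrinks the differences of low genes. In the aged and aged-GA plasmacytoid sums 3 counts are 59.34 and 92.15 CPM. For a gene at 0 UMIs there, the ratio can therefore exceed what the counts allow. Aged Jak2, for example, has a ratio of -4.07 and is at least 2.67-fold lower against 3 counts. Since the rule chose the cells, the ratios are descriptions without a test. Of 1686 genes with at least 30 UMIs in both libraries, 30 (1.78%) had ratios at least 2-fold higher in plasmacytoid cells in both and 86 (5.1%) at least 2-fold lower. Some of the 86 had 0 UMIs in plasmacytoid cells, and 3 counts do not place them 2-fold lower. Their limits include 0.985-fold and 1.07-fold for Snap23 and 1.01-fold and 1.11-fold for Sbno2. The medians over all genes were -0.03 in the aged and -0.12 in the aged-GA library. Without the aged-GA cell that lacked Siglech the counts were 31 and 96. Without the cells that met both rules they were 46 and 247, and without cells that held 3 UMIs of monocyte genes they were 19 and 14. The aged cell rich in Lyz2 held 36101 of the 50560 aged plasmacytoid UMIs (71.4%) and so weighed most in every aged plasmacytoid level. Without it the counts were 76 and 236, and the values of the main genes without it are given beside the others. In the aged library alone 16.9% of 3164 genes were then higher and 33.6% lower.

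Genes known for plasmacytoid identity, other than those of the rule, were higher in plasmacytoid cells. In the aged library 12 of the 20 list genes with enough UMIs were at least 2-fold higher, against 6.55% of 3296 genes, and none was 2-fold lower, with a median log2 ratio of 1.27. In the aged-GA library the count was 10 of 15, against 8.82% of 1700 genes, with a median of 2.05, and of 2.25 without the cell that lacked Siglech. Plasmacytoid cells of the aged and aged-GA libraries held Bst2 at 2987 and 3348 CPM, against 877 and 602 CPM in conventional cells, log2 ratios of 1.76 (1.50 to 2.03) and 2.46 (2.12 to 2.83). Tcf4 stood at 969 and 1444 CPM against 248 and 171 CPM, ratios of 1.93 (1.48 to 2.44) and 3.01 (2.48 to 3.68). Runx2, a Runt-family factor, had 475 and 522 CPM against 114 and 108, ratios of 1.97 and 2.17. The groups differed in the same direction in both libraries for these 3 genes. Irf8 had ratios of 0.92 in the aged and 2.87 in the aged-GA library. Without the cell rich in Lyz2 the aged ratios were 2.86 (2.54 to 3.19) for Bst2, 2.81 (2.20 to 3.46) for Tcf4, 3.26 (2.52 to 4.14) for Runx2 and 2.38 (1.93 to 2.85) for Irf8. For the identity list, 17 of 19 genes were then at least 2-fold higher in the aged library, against 16.9% of all genes, with a median of 1.93. Pacsin1, an endocytic adaptor enriched in plasmacytoid cells, was seen in plasmacytoid cells alone of the 2 kinds, with 8 and 15 UMIs against 0 and 0, at least 34.3-fold and 46.7-fold higher against 3 counts over the group.

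Ly6d, a surface protein of lymphoid precursors, B cells and plasmacytoid cells, had 99 and 30 UMIs in plasmacytoid cells against 12 and 2 in conventional cells, 1958 and 922 CPM against 18.5 and 6.57. Aged B cells held 1868 CPM of Ly6d, near the level summed over all aged plasmacytoid cells, so B cells carried the gene as well. Without the aged cell rich in Lyz2 the aged plasmacytoid level was 3873 CPM (56 UMIs). Ighm, the heavy chain of IgM, was also present, with 39 and 32 UMIs. Those 2 values made up most of the 47 and 34 UMIs of a B-cell list in which the genes Ms4a1, Pax5 and Ebf1 were at 0. The T-cell list summed to 4 and 4 UMIs, with Trac, Trbc1 and Trbc2 at 0. Cells past the B and T limits had been left out beforehand, which favours low values of the B-cell and T-cell lists. These low values therefore do not test the plasmacytoid label. The part of B-cell RNA in the Ighm value was not tested, and NK cells of the same libraries held 60.8 and 67.7 CPM of Ighm against 771 and 983 CPM in plasmacytoid cells. The aged plasmacytoid level of Ighm was 1798 CPM without the cell rich in Lyz2.

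The transcripts of antigen presentation on MHC class II were lower in plasmacytoid cells. In the aged library 5 of 11 list genes were at least 2-fold lower, against 13.8% of all genes, and none higher, with a median of -0.73. In the aged-GA library 10 of 10 were lower, against 24.2%, with a median of -2.29. Each count includes a gene at 0 UMIs in plasmacytoid cells that 3 counts do not place 2-fold lower. These are Ciita in the aged library (at least 1.35-fold lower) and Lgmn in the aged-GA library (at least 1.46-fold lower). H2-Aa, an MHC class II α chain, had 5 and 15 UMIs in plasmacytoid cells against 1665 and 1040 in conventional cells. The levels were 98.9 and 461 CPM against 2561 and 3419 CPM, ratios of -4.56 (-6.32 to -3.47) and -2.86 (-3.73 to -2.16). Monocytes of the same libraries held 103 and 409 CPM and NK cells 40.1 and 63.9 CPM. Most of the aged-GA H2-Aa UMIs came from the cell with Cd209a, which held 10 of the 15. Cd74, the invariant chain that guides class II molecules, remained at 1602 and 2058 CPM in plasmacytoid cells, below the 7695 and 8889 CPM of conventional cells (ratios -2.26 and -2.11) and above the 92.9 and 160 CPM of NK cells. Without the cell rich in Lyz2, aged Cd74 stood at 2075 CPM and H2-Aa at 138 CPM, with ratios of -1.89 (-2.46 to -1.38) and -4.11 (-7.26 to -2.35). In that version 9 of 11 class II genes had ratios past 2-fold lower (median -1.89), against 33.6% of all genes. Among them March1 and Ciita, both at 0 UMIs, and H2-DMa had intervals that include 0. Of the 67 aged-GA Cd74 UMIs the cell with Cd209a held 40. Of the MHC class I and cross-presentation genes, 3 of 16 were higher and 2 lower in the aged library, against 6.55% and 13.8% of all genes, and 1 of 15 was higher and 1 lower in the aged-GA library, against 8.82% and 24.2%. Their medians were 0.38 and -0.15.

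Plasmacytoid cells are known for a large secretory apparatus. Of 30 protein export genes of the endoplasmic reticulum with enough UMIs, 4 were at least 2-fold higher and none lower in the aged library, against 6.55% and 13.8% of all genes (median 0.60). Without the cell rich in Lyz2 these were 12 of 29 higher and 2 lower, against 16.9% and 33.6% of all genes (median 0.80). In the aged-GA library 6 of 24 were higher and 3 lower, against 8.82% and 24.2% (median 0.70). Of the genes of endosomal Toll-like receptor sensing, 4 of 10 were at least 2-fold higher and 3 lower in the aged library, against 6.55% and 13.8% of all genes. In the aged-GA library 2 of 7 were higher and 2 lower, against 8.82% and 24.2%. The lower ones include Lgmn at 0 UMIs, which is at least 1.46-fold lower against 3 counts. The receptors themselves were sparse in plasmacytoid cells, with Tlr7 at 2 and 3 UMIs and Tlr9 at 1 and 0. No UMI of an interferon ligand gene was seen. Of 23 listed genes of type I and III interferons and their receptors, 20 were at 0 UMIs in both kinds and both libraries, every ligand among them. Interferon-stimulated genes had a median of 0.01 in the aged and -1.46 in the aged-GA library, and of -1.18 in the aged library without the cell rich in Lyz2.

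Among the genes with the largest ratios in both libraries were Atp1b1, a subunit of the sodium pump (3.08 and 3.01), Ctsl, which encodes the lysosomal protease cathepsin L (2.95 and 3.72), and Ptprcap, a partner of CD45 (2.93 and 4.71). Lair1, an inhibitory collagen receptor, stood at 2.70 and 3.56, and H2-Q7, a non-classical class I gene with close paralogs, at 2.49 and 3.47. Without the aged-GA cell that lacked Siglech, the H2-Q7 level of aged-GA plasmacytoid cells fell from 645 to 391 CPM. Dnajc7, Fyb, Fyn, Ctsb, Lgals1 and Arl5c were between 1.47 and 2.97, except that Fyn had a ratio of -0.16 in the aged library when no B or T UMI was allowed. Without the aged cell rich in Lyz2, the aged ratio was 4.18 for Ctsl, 4.32 for Ptprcap, 4.22 for Lair1, 3.94 for H2-Q7 and 1.77 for Lgals1. It was then 3.34 for Fyn, 3.1 for Dnajc7, 2.55 for Fyb, 2.41 for Ctsb and 1.84 for Arl5c.

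The genes lowest in plasmacytoid relative to conventional cells were partly those of other myeloid cells. Ckb, the brain-type creatine kinase, had 0 and 0 UMIs in plasmacytoid cells against 187 and 59 in conventional cells, at least 4.85-fold and 2.11-fold lower. Jak2, the kinase below many cytokine receptors, had 0 and 0 against 103 and 31, at least 2.67-fold and 1.11-fold lower. Egr1, an immediate early factor, had 0 and 0 against 66 and 80, at least 1.71-fold and 2.85-fold lower. Of the genes that dissociation of tissue can raise, 9 of 15 in the aged and 11 of 15 in the aged-GA library had ratios past 2-fold lower. The shares of all genes were 13.8% and 24.2%, and the list medians -1.31 and -2.10. The aged count includes Egr1 and Ier3 at 0 UMIs, which 3 counts limit to at least 1.71-fold and 0.907-fold lower. Without the cell rich in Lyz2 the aged count was 14 of 15, against 33.6% of all genes. Its median of -3.48 is the ratio of Egr1 at 0 UMIs, and so depends on the 10 CPM added. Il1b, an inflammatory cytokine, had 0 and 1 UMIs in plasmacytoid against 111 and 221 in conventional cells. S100a8, a neutrophil and monocyte protein, had 0 and 2 against 794 and 952 UMIs, but 3 of 57 aged and 4 of 24 aged-GA conventional cells held 100 or more each. For the monocyte list the aged plasmacytoid sum held 580 UMIs, 465 of them Lyz2 in a single cell, and the aged-GA sum held 3. The list medians for plasmacytoid over conventional cells were -0.16 and -4.44, and -4.11 in the aged library without that cell. The last 2 medians rest on genes at 0 UMIs, such as Itgam, and so depend on the 10 CPM added. Against 3 counts Itgam is at least 2.25-fold lower in the aged-GA library. Its aged interval without the cell rich in Lyz2 reaches up to 0.67 and so includes 0.

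**Figure D3:**
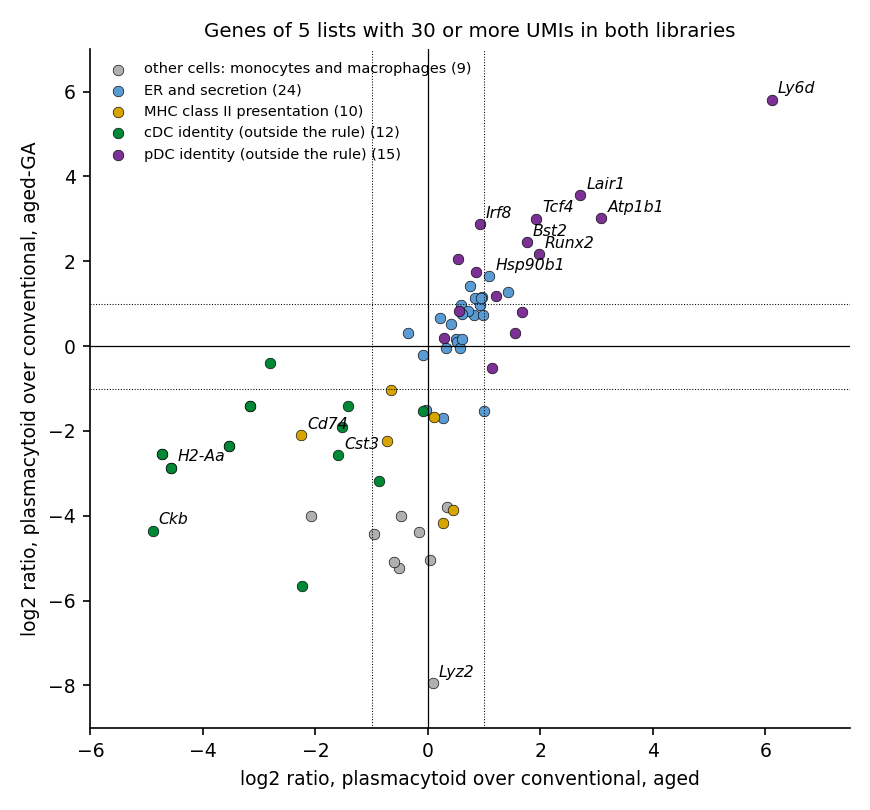
Log2 ratio of plasmacytoid over conventional cells (CPM + 10) in the aged library (horizontal axis) against the aged-GA library (vertical axis), each point a gene with at least 30 UMIs in both libraries, coloured for 5 gene lists, with dotted lines at 2-fold. Plasmacytoid identity genes such as Tcf4 (1.93 and 3.01) lie at the upper right and MHC class II genes such as H2-Aa (-4.56 and -2.86) at the lower left.

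The conventional cells were split by the rule genes into 3 subsets. In the aged library 14 cells held Xcr1 or Clec9a (at least 2 UMIs and more than Cd209a), 21 held Cd209a and 22 had chiefly Flt3 or Zbtb46, and in the aged-GA library these numbered 2, 19 and 3. Of the 57 aged cells 52 held Flt3, 26 Cd209a, 22 Clec9a, 10 Zbtb46 and 2 Xcr1, so the chemokine receptor that names the first subset was near the limit of detection and the endocytic receptor Clec9a defined it. Cd209a, a C-type lectin, ranged from 2 to 16 UMIs per cell in the aged Cd209a cells (median 5) and from 2 to 28 in the aged-GA ones (median 9). The subsets are described from the aged library, since the aged-GA library held only 2 Xcr1/Clec9a cells.

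Most of the Xcr1/Clec9a cells held the factors of their lineage beyond the genes that chose them, with at least 10 UMIs of Irf8 in 10 of 14 and of Id2 in 9 of 14. Others did not, since 5 of the 14 cells had 0 UMIs of Id2. Of those 5 cells, 4 also had 0 of Batf3 and held Bst2 at 34, 39, 34 and 39 and Tcf4 at 15, 3, 18 and 24 UMIs, genes known from plasmacytoid cells, with 0 or 1 UMI of Siglech. Fewer than 10 class II UMIs were found in 3 of the 14. Irf8 had a median of 18 UMIs per cell (0 to 32) against 0 (0 to 10) in Cd209a cells, 1480.4 CPM against 103 CPM and a log2 ratio of 3.72 (3.25 to 4.50). Id2, an inhibitor of E proteins, had a median of 17 (0 to 41) against 0 (0 to 3), 1357 CPM against 57.6 CPM and a ratio of 4.34 (3.78 to 5.45). Batf3, a partner of IRF8, stood at 415 against 49.4 CPM, a ratio of 2.84 (2.17 to 4.09). The median cell of one subset thus held Irf8 and Id2 and the median cell of the other held neither, although the ranges overlapped. NK cells of the aged library also held Irf8 and Id2, at 1224 and 1132 CPM, but Batf3 at 5.73 CPM, so of the 3 genes only Batf3 set the Xcr1/Clec9a cells apart from NK cells. All 9 tested genes of the list for this lineage were at least 2-fold higher, against 3.41% of 1963 genes, with a median of 2.59 where that of all genes was 0.00. They included Cd24a, a surface glycoprotein (434 against 53.5 CPM), and Wdfy4, needed for cross-presentation (378 against 90.5 CPM). Among genes under 30 UMIs, Tlr3, the receptor for double-stranded RNA, had 20 UMIs against 1. Rab7b, a small GTPase of late endosomes, and Kit, the receptor for stem cell factor, were at 161 and 99.1 CPM in Xcr1/Clec9a cells and 0 in Cd209a cells. Cst3, the protease inhibitor cystatin C, had a per-cell median of 201.5 UMIs (18 to 284) against 31 (21 to 86).

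The Cd209a cells held the opposite set. Of 15 genes listed for the SIRPα-bearing lineage 11 were at least 2-fold higher in them, against 7.59% of all genes, with a median of -1.74 for Xcr1/Clec9a over Cd209a cells. Sirpa, the receptor for CD47, stood at 165 CPM against 6.19 CPM, a ratio of -3.43 (-10.07 to -2.17), and Clec10a, a galactose-type lectin, at 152 against 6.19 CPM. The monocyte genes differed too, with 8 of 8 at least 2-fold higher in Cd209a cells and a median of -3.40. Csf1r, the receptor for macrophage colony-stimulating factor, had 173 CPM against 18.6, and Lyz2 had a per-cell median of 22 UMIs (0 to 458) against 3.5 (0 to 15). The class II genes did not separate the subsets as a list, with 1 of 11 past 2-fold and a median of 0.27. The class II sum per cell was 176 UMIs (0 to 299) in Xcr1/Clec9a and 98 (0 to 336) in Cd209a cells.

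The conventional label was weakest in the aged Flt3/Zbtb46 cells. The class II sum of these 22 cells had a median of 1 UMI (0 to 321), and 14 of them held fewer than 10. Lyz2 had a median of 116 UMIs (0 to 618), with 11 of 22 at 100 or more. At least 3 UMIs of monocyte genes were found in 15 of these 22 cells and in 15 of 21 aged Cd209a cells, but in 0 of 14 Xcr1/Clec9a cells. Over all conventional cells, 20 of 57 aged and 2 of 24 aged-GA cells held fewer than 10 class II UMIs. Of the 20 aged cells, 11 also held 100 or more Lyz2 UMIs and 5 held 5 or more Tcf4 UMIs. Those cells are called here only by the rule that chose them.

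**Figure D4:**
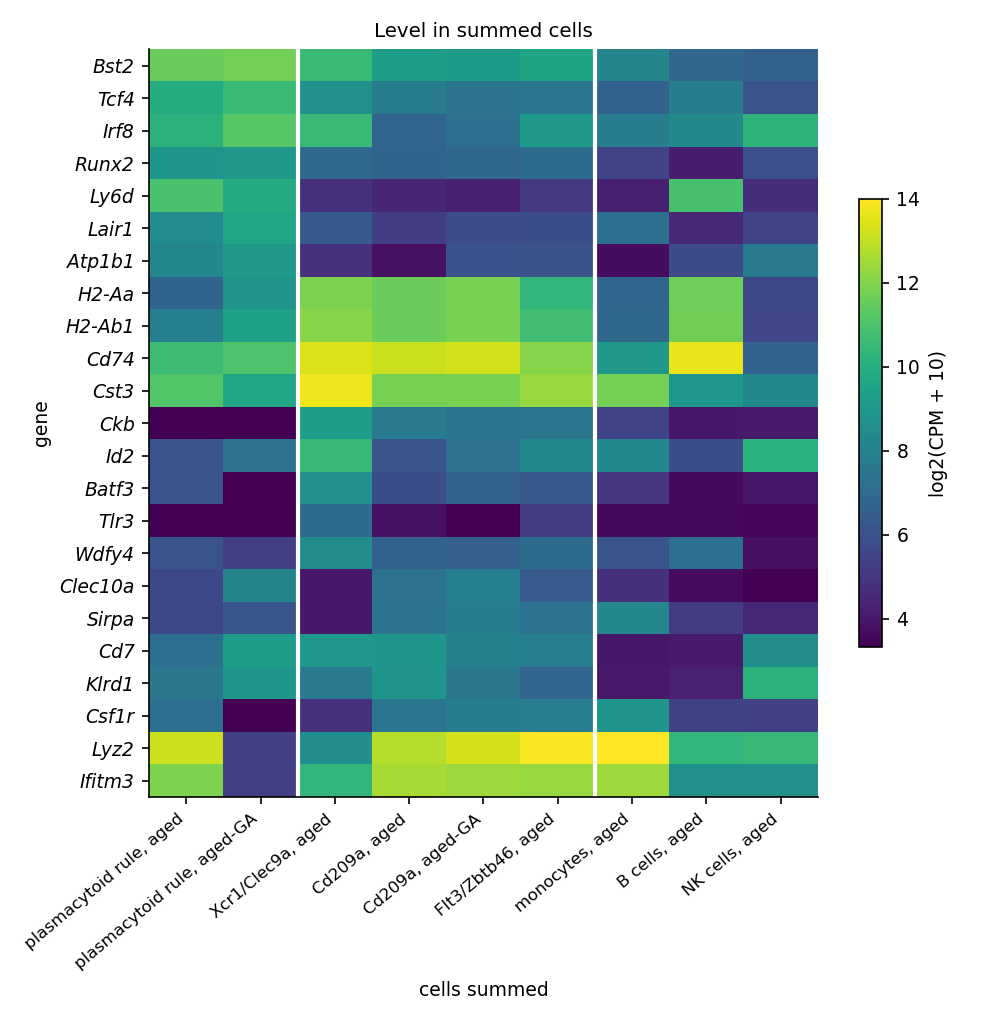
Level as log2(CPM + 10) of 23 genes (rows) in 9 summed groups of cells (columns): plasmacytoid cells of the aged and aged-GA libraries, subsets of conventional cells, and monocytes, B cells and NK cells of the aged library. Bst2 and Tcf4 are highest in the plasmacytoid columns, Batf3 is highest in the aged Xcr1/Clec9a column, Irf8 and Id2 are high there and in NK cells, and Lyz2 is high in monocytes, Cd209a cells, Flt3/Zbtb46 cells and the aged plasmacytoid column, where a single cell holds it.

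Set against monocytes of the same library, the conventional cells held more class II transcripts. In the aged library 9 of 15 class II genes were at least 2-fold higher than in 1195 monocytes, against 2.45% of 9463 genes, and none lower (median 1.99). In the aged-GA library 10 of 14 were higher, against 2.76% of 7278 genes (median 2.41). The medians over all genes were -0.01 and -0.06. H2-Aa stood at 2561 and 3419 CPM against 103 and 409 CPM. The list of the SIRPα-bearing lineage went both ways. In the aged library 6 of 19 genes were higher and 4 lower, against 2.45% and 3.97% of all genes (median -0.12). In the aged-GA library 5 of 19 were higher and 3 lower, against 2.76% and 6.92% (median -0.11). Ckb stood at 288 and 194 CPM against 34.0 and 49.9 CPM. A pair of genes better known from NK cells was also present, with Cd7 at 392 and 312 CPM against 6.19 and 13.5 CPM and Klrd1, which encodes CD94, at 263 and 174 CPM against 6.60 and 10.5 CPM. Cd7 was similar in Xcr1/Clec9a and Cd209a cells (508 and 481 CPM, a ratio of 0.08), whereas Klrd1 was lower in Xcr1/Clec9a cells (204 against 465 CPM, a ratio of -1.15). Neither gene was particular to conventional cells. Aged and aged-GA plasmacytoid cells held Cd7 at 138 and 614 CPM and Klrd1 at 178 and 491.5 CPM. Without the aged-GA cell that lacked Siglech, the aged-GA levels were 739 CPM for Cd7 and 435 CPM for Klrd1. The monocyte list was lower in conventional cells at 13 of 17 genes in the aged library, against 3.97% of all genes (median -1.38), and at 9 of 17 in the aged-GA library, against 6.92% (median -1.03). Part of that list was used to choose the monocytes.

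Within plasmacytoid cells, aged-GA over aged compared 4 cells with 3, and single cells set most of the extreme values. Of 402 genes with 30 UMIs, 34 (8.46%) were at least 2-fold higher and 67 (16.7%) at least 2-fold lower in aged-GA cells, with a median of -0.10. The highest, Ccl5 and Gzma, went from 0 UMIs in the aged cells to 66 and 63 in the aged-GA cells, each in the cell without Siglech. The lowest were Lyz2, from 465 to 1, Ifitm3, an antiviral membrane protein, from 198 to 1, Ifitm2, its paralog, from 45 to 0, and Lgals3, a galectin, from 110 to 1, and the aged cell with Lyz2 held nearly all of the Lyz2 and Ifitm3 UMIs. The same aged cell set the ratios of the identity genes. Over all cells Bst2 had a ratio of 0.16 (-0.20 to 0.53), Tcf4 of 0.57 (-0.03 to 1.18), Irf8 of 1.06 (0.55 to 1.58) and Ly6d of -1.08 (-1.73 to -0.49). Without that cell the ratios were -0.94 (-1.35 to -0.53) for Bst2, -0.31 (-1.04 to 0.43) for Tcf4, -0.41 (-0.95 to 0.15) for Irf8 and -2.06 (-2.76 to -1.41) for Ly6d. Without the cell that lacked Siglech as well, which leaves 3 aged-GA against 2 aged cells, Bst2 had a ratio of -0.44 (-0.85 to -0.03), Tcf4 of 0.18 (-0.54 to 0.94) and Irf8 of -0.04 (-0.60 to 0.52). Ly6d was then at -1.56 (-2.26 to -0.905), and so was lower in each version. The sign of Bst2, Tcf4 and Irf8 depended on which cells were summed, and the Tcf4 interval included 0 in each version. With 3 against 2 cells other genes also lay past 2-fold. Lower were Ifi27l2a at -2.24 (-3.17 to -1.41), Ly6a at -2.42 (-3.71 to -1.35) and Ly6c2 at -1.74 (-2.71 to -0.86). Jund was higher, at 2.68 (1.26 to 4.66). Klf2, a factor of lymphocyte quiescence, had 10 against 28 UMIs, a ratio of 2.07 (1.04 to 3.33), and of 1.03 (-0.25 to 2.61) without the aged cell. The identity list had 2 of 12 genes higher and 2 lower, with a median of 0.28, and of 0.78 without the cell that lacked Siglech. Without the cells that met both rules, which leaves few cells on either side, the counts over all genes were 20 higher and 12 lower. Without the aged cell rich in Lyz2 they were 19 higher and 10 lower of 219 genes, and the identity list had 3 of 10 genes lower, none higher and a median of -0.42.

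Within conventional cells, aged-GA over aged compared 24 cells with 57. Of 4178 genes 75 (1.8%) were at least 2-fold higher in the aged-GA cells and 76 (1.82%) at least 2-fold lower, with a median of -0.01. The subsets were in different proportions, 14 Xcr1/Clec9a cells of 57 against 2 of 24, and the B and T limits bore on this. They removed 4 Xcr1/Clec9a cells from the aged-GA library and 1 from the aged, and of the conventional-rule cells with at least 10 Irf8 UMIs they removed 9 and kept 3 in the aged-GA library and removed 2 and kept 15 in the aged. The same ratio was therefore computed in the Cd209a cells alone, 19 against 21, where 46 of 2287 genes (2.01%) were higher and 29 (1.27%) lower with a median of -0.02. The list of the Xcr1/Clec9a lineage showed the difference between both readings. In all conventional cells 4 of 11 list genes were lower and none higher (median -0.84), and in Cd209a cells none was lower and 1 of 7 higher (median -0.07). Irf8 had a ratio of -0.89 in all conventional cells and 0.41 in Cd209a cells, Id2 of -1.18 and 1.28, Cst3 of -0.52 and 0.07.

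The genes highest in aged-GA conventional cells included inflammatory mediators held by few cells. Ccl4, a chemokine that attracts monocytes and T cells, had 77 UMIs in aged and 442 in aged-GA cells, a ratio of 3.51 (3.26 to 3.99), but a single cell held 255 of the 442. Ccl3, its close relative, had 35 and 189 UMIs with 129 in a single cell, a ratio of 3.31 (3.00 to 4.09). In Cd209a cells the ratios were 3.09 for Ccl4 and 3.97 for Ccl3. Without the cells of the top doublet scores Ccl3 had a ratio of -0.55, and without the cells that held 3 monocyte UMIs Ccl4 had a ratio of -0.05. Acod1, the enzyme that makes itaconate, had 3 and 35 UMIs, Ptgs2, the inducible cyclooxygenase, 10 and 57 UMIs, and Hdc, which makes histamine, 28 and 115 UMIs. Hdc was found in 8 aged-GA cells with at most 34 UMIs in any. Cyp11a1, a steroid-synthesis enzyme also seen in basophils, had 0 and 38 UMIs in 2 cells, at least 27.1-fold higher.

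The 6 genes lowest in aged-GA relative to aged conventional cells had at most 17 UMIs in the aged-GA cells. Mif, the macrophage migration inhibitory factor, had 150 UMIs in 48 of 57 aged cells and 17 UMIs in 15 of 24 aged-GA cells, a ratio of -1.87 (-2.86 to -1.32) and of -1.63 in Cd209a cells. Isg15, a ubiquitin-like protein made after interferon, had 84 and 11 UMIs, a ratio of -1.59 (-2.89 to -0.92) and of -1.72 in Cd209a cells. Ifi211, an interferon-inducible gene of a family of close paralogs, had 86 and 11 UMIs, a ratio of -1.62 and of -1.34 in Cd209a cells. Oas1a, a sensor of double-stranded RNA with close paralogs, had ratios of -1.41 and -1.15. Of the interferon-stimulated genes as a list, 2 of 20 were at least 2-fold lower, against 1.82% of all genes, with a median of -0.49. In Cd209a cells 2 of 13 were lower, against 1.27%, with a median of -0.33. Mrps11, a mitochondrial ribosomal protein, had 29 and 1 UMIs, and Ndufaf3, an assembly factor of respiratory complex I, had 35 and 2. Tlr3, at 28 and 2 UMIs, was a gene of the Xcr1/Clec9a cells, of which 2 were kept in the aged-GA library and 4 lay beyond the B and T limits.

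In the summed cells none of 13 class II presentation genes was past 2-fold between the libraries, with a median of 0.24. The shares of all genes were 1.8% higher and 1.82% lower, and none of 13 is near those shares. In Cd209a cells none of 10 was past 2-fold, against 2.01% and 1.27% of all genes, with a median of 0.05. Counted by cell the libraries differed, since 20 of 57 aged and 2 of 24 aged-GA conventional cells held fewer than 10 class II UMIs. H2-Aa had a ratio of 0.42 and Cd74 of 0.21. The list of the SIRPα-bearing lineage had none of 16 genes past 2-fold and a median of 0.15. Of the co-stimulation list none of 6 genes was 2-fold higher and 1 was lower, against 1.8% and 1.82% of all genes, with a median of 0.01. In Cd209a cells 1 of 3 was higher and 1 lower, against 2.01% and 1.27%, with a median of -0.64. With 3 genes compared these counts do not describe the list. Cd86, a co-stimulatory ligand in that list, had ratios of 0.85 and 1.55. Of the dissociation-stress genes 2 of 15 were at least 2-fold higher in aged-GA cells, against 1.8% of all genes, and the other 13 were within 2-fold, with a median of 0.79. In Cd209a cells 2 of 14 were higher, against 2.01%, with a median of 0.57. Egr1 had a ratio of 1.29 and Jun of 1.00, and 1.69 and 0.83 in Cd209a cells.

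Transcripts of other blood cells stood beside these values. The neutrophil list summed to 2881 CPM in the conventional cells of the aged library and 7192 CPM in those of the aged-GA library, with 5 of 7 genes past 2-fold higher, against 1.8% of all genes, and Camp, Ltf and Ly6g at 0 in the aged-GA cells. In Cd209a cells none of 4 neutrophil genes was past 2-fold, with a median of 0.61. A few cells held most of S100a8, with 317, 288 and 143 of the 794 UMIs in 3 of 57 aged cells and 315, 217, 191, 148 and 67 of the 952 UMIs in 5 of 24 aged-GA cells. The basophil list, which holds Hdc, summed to 49.2 and 572 CPM, with Fcer1a, Cpa3, Mcpt8, Cd200r3 and Ms4a2 at 0 in the aged cells. The monocyte list summed to 11550 and 13122 CPM, led by Lyz2 with 5631 and 3034 UMIs. The B-cell list summed to 207 and 117 UMIs, led by Ighm. The platelet list summed to 111 and 388 CPM, with 2 of 3 genes past 2-fold higher, against 1.8% of all genes (median 1.40). In Cd209a cells 1 platelet gene had enough UMIs, with a ratio of 1.74. The erythroid list summed to 6014 and 7906 CPM. Their part in the differences between the libraries was not tested.

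**Figure D5:**
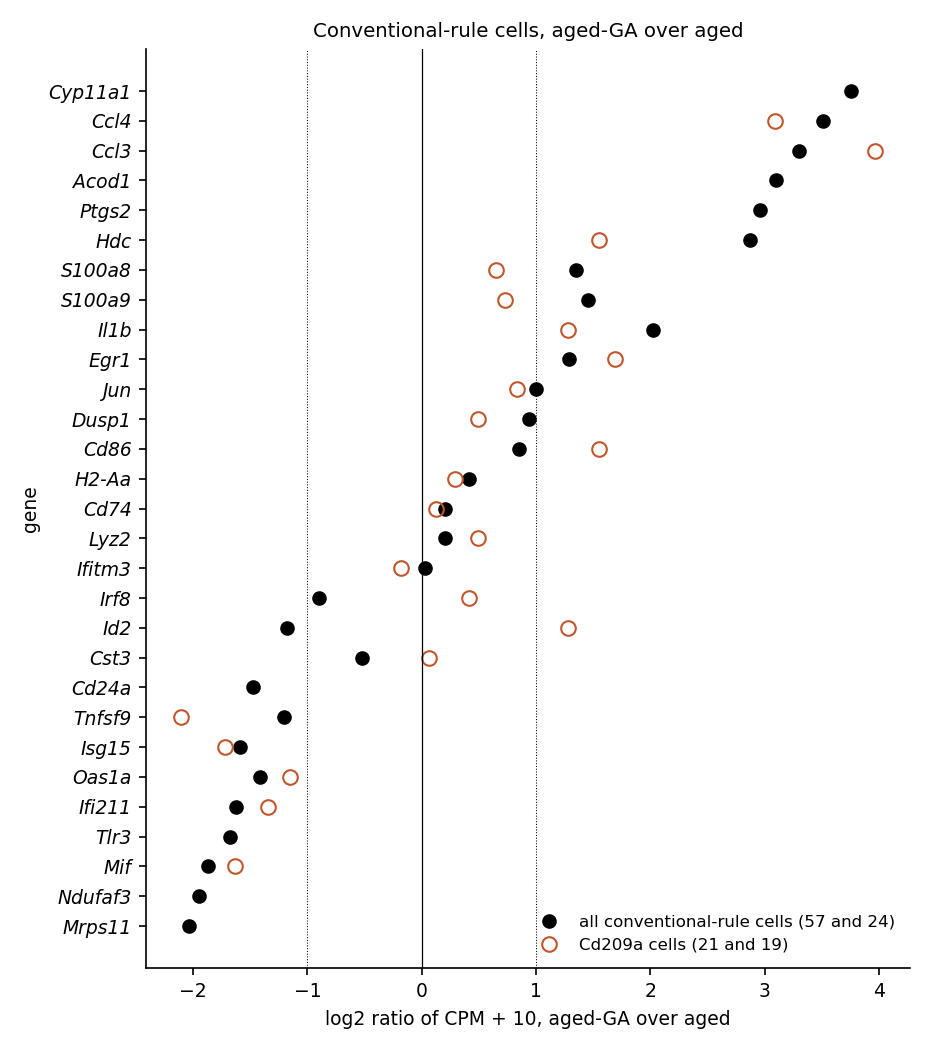
Log2 ratio (CPM + 10) of aged-GA over aged cells for 29 genes, filled points for all conventional cells (24 against 57) and open points for Cd209a cells alone (19 against 21). Mif, Isg15 and Ifi211 lie below -1 in both readings, Ccl3 and Ccl4 above 3, and Irf8 and Id2 change sides of 0 between the readings.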

How the data were processed

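Single-cell RNA libraries of PBMCs were analysed from 1 library each of young, aged and aged-GA mice. The authors deposited a gene-by-barcode matrix of UMI counts per library, made with Cell Ranger (5.0.0 in the file headers) on mm10 per the submitters' processing notes; the counts were not normalized. The members and gene lists were chosen with earlier results of these data known. Cells were kept with at least 200 genes, at most 7.5% mitochondrial and under 20% haemoglobin UMIs, which left 28333 of 44212 barcodes. UMIs were summed per library and kind and divided by the kind's own total (CPM). Log2 ratios used a pseudocount of 10 CPM and genes with at least 30 UMIs over the 2 sums, and a gene was counted at 2-fold. With 1 library per group no test was made. Shares and ratios carry exact 95% binomial or Poisson intervals without the pseudocount, and 3 counts served as the limit for a count of 0. Genes named were those of the rule, those of the lists, the 15 highest and 15 lowest ratios of the kinds in both libraries, the 6 highest and 6 lowest ratios between libraries within a kind, and the 2 most enriched genes per kind over all other cells. Doublets were not removed. Scrublet (scanpy 1.11.5) called 348, 362 and 3 cells, of which the last count was too low to be used, so leaving out the top 5% of scores was tried instead. The libraries held 58894294, 82260961 and 98155671 UMIs over all barcodes. A step of the calculation was tested on simulated data. Promoter sequences were those of RefSeq (GRCm38.p6). Python 3.11.15, numpy 2.4.6, scipy 1.17.1, pandas 2.3.3 and matplotlib 3.10.9 were used.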

Additional observations from a re-analysis of the deposited data

How the results depend on the processing

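No paired analysis was possible because each group had 1 library, and no library could be left out for the same reason. The log2 ratio of plasmacytoid shares of aged over young has no value, since both counts were at or under 3 cells, and the young library gave no gene comparison. Of the share ratios recomputed under the alternatives, 34 stayed within their interval and 8 moved. The conventional share of aged over young, at least 4.12, was at least 3.37 with 5 rule UMIs required, 3.68 with no B or T UMI allowed, 3.04 without cells of 3 monocyte UMIs and 1.95 in cells thinned to 2000 UMIs. The ratio of aged-GA over aged, -1.50, was -0.43 after thinning. With alternatives chosen after seeing the data, aged over young was at least 3.50 without cells of low MHC class II and at least 1.75 as a share of the cells within the B and T limits, where aged-GA over aged was -0.21. The limit on MHC class II left out 20 of 57 aged but 2 of 24 aged-GA conventional cells, so it also bears on aged-GA over aged.

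The counts of genes past 2-fold moved by more than 1.5 times in 37 cases and by less in 71. For plasmacytoid over conventional cells, 30 higher and 86 lower, they were 46 and 247 without cells that met both rules, 76 and 236 without the plasmacytoid cell with 100 Lyz2 UMIs (chosen after seeing the data), 12 and 27 with no B or T UMI allowed, 19 and 14 without cells of 3 monocyte UMIs, 106 and 309 with a minimum of 10 UMIs, 7 and 24 with a minimum of 100 UMIs, and 57 and 180 as means of CPM per cell. The lower count was 52 with 5 rule UMIs required and 47 with a pseudocount of 50. For aged-GA over aged plasmacytoid cells, 34 higher and 67 lower, they were 20 and 12 without cells that met both rules, 19 and 10 without the cell with 100 Lyz2 UMIs, 175 and 275 at 10 UMIs, and 7 and 19 at 100 UMIs. For aged-GA over aged conventional cells, 75 higher and 76 lower, they were 113 and 132 with a pseudocount of 1, 33 and 6 with a pseudocount of 50, 196 and 199 at 10 UMIs, 24 and 12 at 100 UMIs, and 46 and 29 in Cd209a cells only, an alternative chosen after seeing the data. There the lower count was 146 with no B or T UMI allowed and 116 without cells of 3 monocyte UMIs, and the higher count was 48 without the top doublet scores. A lower or higher minimum of UMIs changes the number of genes compared; for the other alternatives the cause was not tested.

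Of the ratios of the named extreme genes, 1184 stayed near their value, 104 moved and 4 that were past 2-fold changed sign. The identity genes Bst2, Tcf4 and Irf8, within or near 2-fold between aged-GA and aged plasmacytoid cells, are outside this count and also changed sign, without the cell with 100 Lyz2 UMIs. Malat1 in plasmacytoid cells of aged-GA over aged was 1.73 and turned to -0.031 without cells that met both rules. Fyn in plasmacytoid over conventional cells of the aged library was -0.16 with no B or T UMI allowed. In conventional cells of aged-GA over aged, Ccl3 was -0.55 without the top doublet scores and Ccl4 -0.054 without cells of 3 monocyte UMIs. Of the medians of lists with at least 5 genes compared, 816 stayed near their value, 92 moved, and 2 past 2-fold changed sign, both of the cell cycle list in plasmacytoid over conventional cells of the aged library, at 1.08, at -1.09 without cells that met both rules and at -1.08 without the cell with 100 Lyz2 UMIs. The plasmacytoid values rest on 3 and 4 cells, and 30 UMIs over both sums were needed for a ratio.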
